A study of Bos taurus with 44 samples.

Results

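The genes described here are the 7 on the array that belong to the MHC class I antigen presentation pathway: PSMB8, PSMB9, PSMB10, TAP2, TAPBP, CALR and B2M. They were taken as the spots whose platform annotation gives 1 of these symbols alone, out of 141 named genes on a spotted cDNA array of bovine immune and endocrine genes. The samples were mononuclear cells, which are lymphocytes and monocytes, prepared on a Percoll gradient from the blood of Holstein cows 6 days after immunization to raise both antibody and cell-mediated responses. The antigens are not named in the labels, and every cow, high or low, had been immunized. High-Ab and low-Ab cows had a high or a low antibody response, and high-DTH and low-DTH cows had a high or a low cell-mediated response. One cow was high for both traits, is called the shared cow, and was counted in both high groups. With it there were 3 high-Ab, 3 low-Ab, 3 high-DTH and 3 low-DTH cows, 11 cows in all, counting equally numbered cows of separate groups as separate animals because the labels give no identities. High-DTH cow 2 was run on 5 arrays, low-DTH cow 3 on 3, and every other cow on 4.

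MHC class I molecules show peptides from inside a cell to CD8 T cells. Most of these peptides are cut by the proteasome. In lymphocytes, and in other cells exposed to interferon gamma, the constitutive catalytic subunits are replaced by PSMB8, PSMB9 and PSMB10, which form the immunoproteasome. TAP2 pairs with TAP1 to pump peptides into the endoplasmic reticulum. There, tapasin, encoded by TAPBP, holds the empty class I molecule next to the transporter with the help of calreticulin, the chaperone encoded by CALR. B2M encodes beta-2 microglobulin, the light chain without which class I molecules do not reach the cell surface.

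On the bovine RefSeq assembly ARS-UCD2.0, TAP2, LOC618733, PSMB8, TAP1 and PSMB9 neighbour each other in this order within the major histocompatibility complex, and TAPBP lies on the same chromosome. Thus 4 of the 7 genes are on that chromosome, while PSMB10, CALR and B2M are not. All 7 matched RefSeq by Entrez identifier and symbol, with the older names ABCB3 for TAP2, LMP7 for PSMB8 and LMP2 for PSMB9. B2M had 16 spots and each of the others 8, all spots of a gene holding 1 clone. The other 23 genes listed for the pathway, which include TAP1, the class I heavy chains, the constitutive proteasome subunits and NLRC5, were not among the named spots.

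Every value is a deposited log ratio per array, read as log2 of cow over a common RNA standard that was also made from blood mononuclear cells. A value of 0 therefore means the same level as the standard, not absence. Levels of different genes cannot be set against each other on this scale. The log base and the direction are not stated, and cow over standard is likely; under the opposite convention all directions below would swap together. In 3 arrays, numbers 1 and 2 of low-Ab cow 1 and number 3 of low-DTH cow 3, the ratios ran against the rest. Their mean correlation with the arrays of other cows was −0.23 to −0.20, whereas it was at least 0.05 in each of the other 41 arrays. They also opposed arrays of their own cow. The lowest r within the cow was −0.67 and −0.73 for arrays 1 and 2 of low-Ab cow 1. It was −0.58 for array 3 of low-DTH cow 3. As deposited, the values of these cows therefore average arrays that oppose each other. The direction of the 3 opposed arrays is not settled. They were kept as deposited, and results that rest on them are also given with their signs turned.

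No gene of the pathway passed the test in any comparison (limma with Benjamini-Hochberg adjustment over all features, threshold 0.05). Of the comparisons of 3 high with 3 low cows, the DTH comparison separated more of the 7 genes. There the ratio of B2M was higher, and those of CALR, PSMB9 and PSMB10 lower, in all 3 high-DTH cows than in all 3 low-DTH cows, 4 of 7 genes against 15.6% of the named genes. In the Ab comparison, as deposited, the cows of both groups overlapped for each of the 7 genes, against 10.6% of the named genes without overlap. With the 3 opposed arrays turned, B2M overlapped in the DTH comparison and PSMB8 did not, and in the Ab comparison TAP2 and PSMB8 did not overlap, against 19.1% of the named genes for DTH and 14.9% for Ab.

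**Figure D1:**
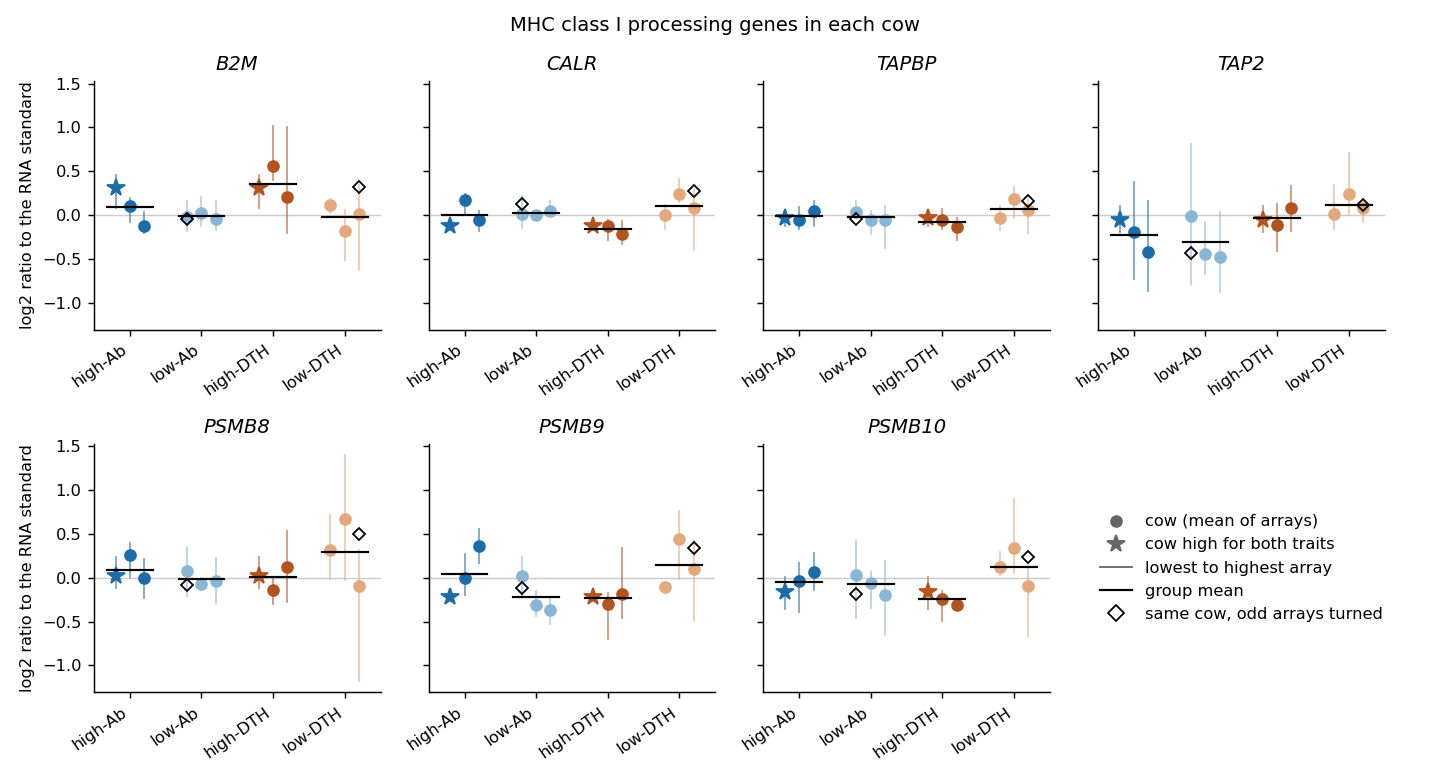
Log2 ratio to the RNA standard of each gene in each cow (points), with the lowest and highest array of the cow (thin lines) and the group mean (bars); the star is the cow high for both traits, and open diamonds give 2 cows with the 3 opposed arrays turned. For B2M the high-DTH cows lie between 0.21 and 0.56 and the low-DTH cows between −0.18 and 0.11, while for PSMB10 the high-DTH cows lie between −0.32 and −0.16 and the low-DTH cows between −0.10 and 0.34.

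The immunoproteasome subunits come first in the pathway. PSMB10, which replaces the constitutive trypsin-like subunit, had log2 ratios of −0.16 in the shared cow, −0.24 and −0.32 in the other high-DTH cows, against 0.12, 0.34 and −0.10 in low-DTH cows 1 to 3. The groups did not overlap, and the highest high-DTH cow and the lowest low-DTH cow were the shared cow and low-DTH cow 3. The difference was −0.36 ± 0.13 (SE, limma, 3 against 3 cows, adjusted p = 0.494), and with the opposed arrays turned it was −0.47 ± 0.09 (adjusted p = 0.347). In the Ab comparison PSMB10 had −0.16, −0.04 and 0.06 in high-Ab cows, against 0.03, −0.06 and −0.20 in low-Ab cows. These groups overlapped almost fully, and the difference was 0.03 ± 0.11 (SE, limma, adjusted p = 0.999).

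PSMB9 replaces the constitutive caspase-like subunit. Its log2 ratios were −0.22, −0.30 and −0.19 in high-DTH cows, the first being the shared cow, against −0.10, 0.45 and 0.09 in low-DTH cows. All high-DTH cows were lower, low-DTH cow 1 being near them, and the difference was −0.38 ± 0.15 (SE, limma, adjusted p = 0.500). High-Ab cows spread widely for this gene, with −0.22, −0.0033 and 0.36, against 0.02, −0.31 and −0.37 in low-Ab cows. The Ab difference was 0.27 ± 0.18 (SE, limma, adjusted p = 0.900), and the shared cow was below low-Ab cow 1. With the opposed arrays turned, low-Ab cow 1 had −0.11 and the groups still overlapped.

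PSMB8 replaces the constitutive chymotrypsin-like subunit. It had log2 ratios of 0.02, −0.14 and 0.12 in high-DTH cows, against 0.32, 0.67 and −0.09 in low-DTH cows. The low-DTH cows were split, with 2 above all high-DTH cows and low-DTH cow 3 among them. The difference was −0.29 ± 0.20 (SE, limma, adjusted p = 0.679). The 3 arrays of low-DTH cow 3 gave 0.31, 0.18 and −1.18, the last being 1 of the opposed arrays. With that array turned the cow had 0.50, the groups no longer overlapped, and the difference was −0.49 ± 0.12 (SE, limma, adjusted p = 0.347). In the Ab comparison PSMB8 had 0.02, 0.26 and −0.01 in high-Ab cows, against 0.07, −0.07 and −0.03 in low-Ab cows. The difference was 0.10 ± 0.11 (SE, limma, adjusted p = 0.954) with overlap, and 0.15 ± 0.10 without overlap once the opposed arrays were turned.

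PSMB8 also differed between arrays of the same cow in the DTH cows, by array number. On arrays 1 and 2 of low-DTH cow 2 it had 0.24 and −0.02, and on arrays 3 and 4 it had 1.40 and 1.05. On arrays 1 and 2 of low-DTH cow 1 it had 0.06 and −0.01, and on arrays 3 and 4 it had 0.52 and 0.72. High-DTH cow 3 showed the same split, with −0.28 and −0.27 on arrays 1 and 2 and 0.53 and 0.51 on arrays 3 and 4. In these 3 cows the arrays of each pair carried opposite dyes, so the split followed the array number and not the dye. The labels do not say what the numbers stand for. The shared cow differed in the same direction by less, with −0.11 and −0.12 on arrays 1 and 2 and 0.24 and 0.07 on arrays 3 and 4. High-DTH cow 2 showed no such split, its 5 arrays lying between −0.30 and −0.0014. Low-DTH cow 3, with 0.31 and 0.18 on arrays 1 and 2, had −1.18 on array 3, the opposed array whose direction is not settled.

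TAP2 had ratios of −0.05, −0.11 and 0.08 in high-DTH cows, against 0.01, 0.24 and 0.08 in low-DTH cows. The difference was −0.14 ± 0.10 (SE, limma, adjusted p = 0.703) and the cows overlapped. In the antibody groups TAP2 was low against the standard, with −0.05, −0.19 and −0.43 in high-Ab cows, against −0.01, −0.44 and −0.48 in low-Ab cows. The Ab difference was 0.09 ± 0.17 (SE, limma, adjusted p = 0.999). It hangs on low-Ab cow 1, whose arrays 1 and 4 gave 0.81 and −0.79. With arrays 1 and 2 of this cow turned its value was −0.43, the 3 high-Ab cows were all above the 3 low-Ab cows, and the difference was 0.23 ± 0.11 (SE, limma, adjusted p = 0.598).

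TAPBP varied the least of the 7 genes. It had −0.04, −0.06 and −0.13 in high-DTH cows, against −0.04, 0.18 and 0.05 in low-DTH cows, and differed by −0.14 ± 0.09 (SE, limma, adjusted p = 0.676). The shared cow and low-DTH cow 1 had nearly the same value, so the groups overlapped. In high-Ab cows it had −0.04, −0.06 and 0.04, against 0.04, −0.05 and −0.06 in low-Ab cows, and differed by 0.0076 ± 0.09 (SE, limma, adjusted p = 0.999).

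CALR, the chaperone of the loading complex, had −0.12, −0.13 and −0.21 in high-DTH cows, against −0.00018, 0.25 and 0.08 in low-DTH cows. All high-DTH cows were lower, and the difference was −0.26 ± 0.10 (SE, limma, adjusted p = 0.494). It was −0.33 ± 0.10 (SE, limma, adjusted p = 0.347) with the opposed arrays turned, again without overlap. High-Ab cows had −0.12, 0.17 and −0.06, against 0.01, 0.01 and 0.05 in low-Ab cows. The low-Ab cows lay inside the span of the high-Ab cows, and the difference was −0.03 ± 0.11 (SE, limma, adjusted p = 0.999).

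B2M had the only positive DTH difference of the 7. Its log2 ratios were 0.31, 0.56 and 0.21 in high-DTH cows, against 0.11, −0.18 and 0.01 in low-DTH cows. The groups did not overlap, and the difference was 0.38 ± 0.13 (SE, limma, adjusted p = 0.494). The value of high-DTH cow 3 hangs on its array 4, which gave 1.00. Arrays 1 to 3 of this animal gave −0.09, 0.12 and −0.21, the last with an SD of 0.85 over 16 spots. Its mean on arrays 1 and 2 was 0.02. Low-DTH cows 1 and 3 were above it there, at 0.09 and 0.25, so the groups overlapped without any opposed array. On arrays 3 to 5 no low-DTH cow exceeded 0.13 and no high-DTH cow was under 0.36. With the opposed array turned, low-DTH cow 3 moved to 0.33, above 2 of the high-DTH cows, and the difference was 0.27 ± 0.16 (SE, limma, adjusted p = 0.485). High-Ab cows had 0.31, 0.10 and −0.12, against −0.02, 0.02 and −0.05 in low-Ab cows, and differed by 0.11 ± 0.13 (SE, limma, adjusted p = 0.954). The high-Ab cows enclosed the low-Ab cows, whose 3 values were within 0.04 (SD) of their mean of −0.01.

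For the DTH comparison as a whole, 1 of the 7 genes had a higher and 6 a lower ratio in high-DTH cows. Of 565 features tested, 0 passed the adjusted threshold (0.0%), and 9.73% had an unadjusted p under 0.05. Among the 7 genes, 4 had an unadjusted p under 0.05: B2M (0.0280), PSMB10 (0.0328), CALR (0.0354) and PSMB9 (0.0450). These 4 were also those without overlap between cows, a pattern found in 15.6% of the 141 named genes, 8.51% higher and 7.09% lower. A two-sided exact permutation test gave p = 0.1 for each of the 4, the smallest that 3 against 3 cows can give. The median difference was −0.26 over the 7 genes and −0.03 over the 141, of which 60.3% had a lower ratio. With the opposed arrays turned, CALR, PSMB8, PSMB9 and PSMB10 were lower without overlap and B2M overlapped, while 19.1% of the 141 named genes did not overlap and 12.1% of the 141 were lower without overlap.

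Within the array numbers the DTH differences kept their signs but not their size. Of arrays 3 to 5, low-DTH cow 3 has the opposed array alone. Leaving that array out therefore removes this cow, and only low-DTH cows 1 and 2 stay on the low side. B2M was higher by 0.17 on arrays 1 and 2 and by 0.70 on arrays 3 to 5, and by 0.51 on arrays 3 to 5 without the opposed array. For PSMB8 the difference was −0.31 on arrays 1 and 2, −0.03 on arrays 3 to 5, and −0.73 on arrays 3 to 5 without the opposed array. As deposited, the opposed array left almost no PSMB8 difference in the second set. PSMB10 had −0.34 on arrays 1 and 2 and −0.24 on arrays 3 to 5, or −0.59 without the opposed array. PSMB9 had −0.36 on arrays 1 and 2 and −0.24 on arrays 3 to 5, or −0.50 without that array. CALR had −0.32 on arrays 1 and 2 and −0.09 on arrays 3 to 5, or −0.29 without it. In each of these 4 genes the second set's difference was smaller with low-DTH cow 3 than without this cow. The size also differed by dye for B2M, with 0.60 on arrays that held the cow in Alexa555 and 0.15 on those that held it in Alexa647. The opposed array of low-DTH cow 3 is in Alexa555 and enters only the first of these values. B2M had −0.62 on it and 0.34 on array 2 of this cow, also in Alexa555.

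Cell type markers were read in the same cows, and in bulk cells fewer cells of a type and less RNA per cell cannot be told apart. All 7 measured T cell markers of the 9 listed had a higher ratio in high-DTH cows, with a median difference of 0.33, or 0.21 with the opposed arrays turned. The mean over them lay between 0.37 and 0.69 in the 3 high-DTH cows, against 0.00 to 0.35 in the 3 low-DTH cows. As deposited, the lowest high-DTH cow was just above the highest low-DTH cow. With the opposed arrays turned, the average of the low-DTH cows rose from 0.19 to 0.24. Whether the cows then overlapped was not examined. Of 8 B cell markers 4 were measured, and IGHM, JCHAIN, CD40 and CD72 were all lower, with a median difference of −0.28, or −0.34 with the arrays turned. Their mean lay between −0.44 and 0.06 in high-DTH cows, against −0.03 to 0.53 in low-DTH cows. None of these markers passed the test, monocyte markers were split 2 and 2 (median 0.02), and the part of cell composition in the values of the 7 genes was not tested. Since the standard came from the same kind of cells, the ratios cannot show whether a marker is present or absent.

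For the Ab comparison 6 of the 7 genes had a higher ratio in high-Ab cows and 1, CALR, a lower one, with a median difference of 0.09, against −0.01 over the 141 genes. None passed (0.0% of 562 features) and none had an unadjusted p under 0.05, against 6.58% of all features. No gene of the pathway was free of overlap, against 10.6% of the named genes. With the opposed arrays turned, TAP2 and PSMB8 were free of overlap, against 14.9%. The interval of the difference for PSMB9, the largest of the 7, ran from −0.17 to 0.70. For this gene these 6 cows exclude neither a sizeably higher ratio in high-Ab cows nor a slightly lower one. T cell markers were higher here too, 6 of 7 with a median of 0.41, or 0.27 with the opposed arrays turned, with CD28 as the exception.

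**Figure D2:**
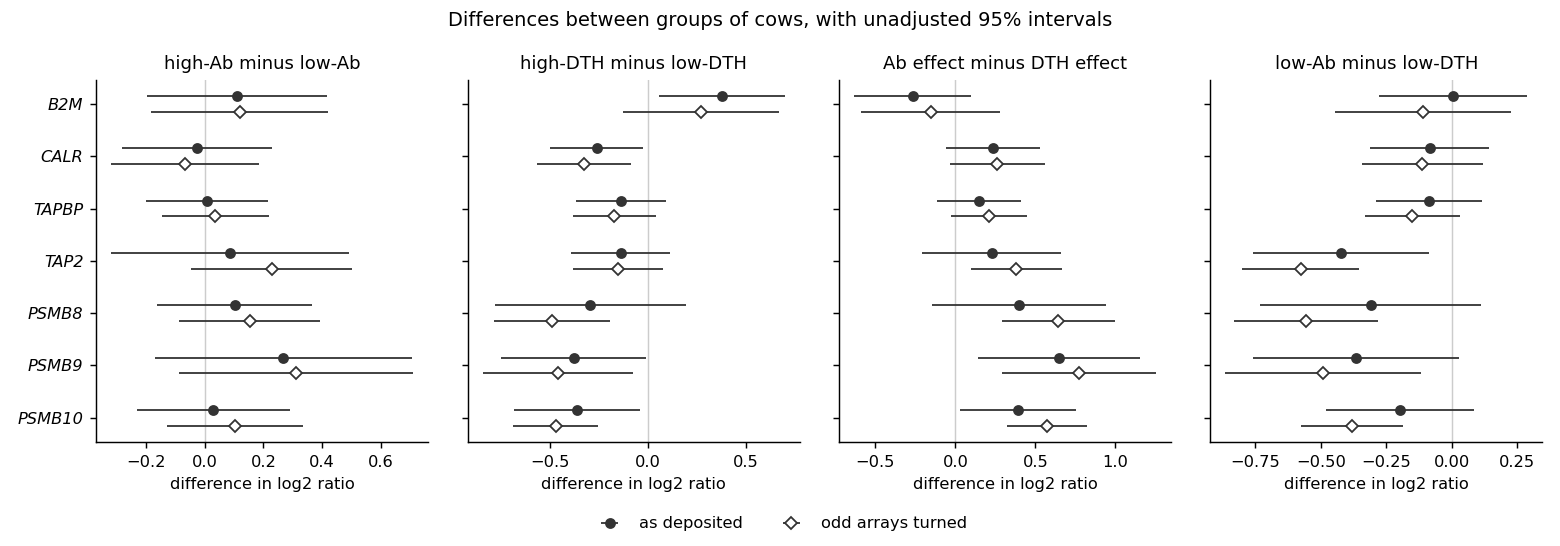
Difference in log2 ratio of each gene in 4 comparisons (limma estimate and unadjusted 95% interval), as deposited (filled) and with the 3 opposed arrays turned (open); each panel has its own scale. In the DTH panel only B2M lies right of 0, and in the panel of the Ab effect minus the DTH effect PSMB9 has the highest value, 0.65.

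Whether the high-minus-low effect differs between the traits was tested in 1 fit of all 11 cows, in which the shared cow cancels. The effects themselves share that cow, so they are only given side by side. PSMB9 had 0.27 for Ab and −0.38 for DTH, and the difference of the effects was 0.65 ± 0.22 (SE, limma, adjusted p = 0.294). PSMB10 had 0.03 and −0.36, with a difference of 0.39 ± 0.16 (SE, limma, adjusted p = 0.440). For PSMB8 the effects were 0.10 and −0.29, and their difference was 0.40 ± 0.24 (SE, limma, adjusted p = 0.756). The estimates of the 3 subunits were positive for Ab and negative for DTH. For PSMB10, however, the Ab estimate was only 0.03 ± 0.11 (SE) and changed sign in 4 of 19 alternatives. None of the differences of the effects passed, while 7 of 561 features did (1.25%), none of them a gene of this pathway. Unadjusted p was under 0.05 for PSMB9 and PSMB10, 2 of the 7 genes, against 10.2% of all features. B2M was the only gene with a negative difference of the effects, −0.27 ± 0.16 (SE, limma, adjusted p = 0.756).

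Turning the 3 opposed arrays brought the subunits closer to the threshold without passing it. The difference of the effects was then 0.58 ± 0.11 for PSMB10 (SE, limma, adjusted p = 0.0592), the lowest p of the 141 genes. Over its 23 alternatives the adjusted p of PSMB10 ran from 0.0592 to 0.981. PSMB8 had 0.64 ± 0.15 (SE, limma, adjusted p = 0.0603, range over alternatives 0.0603 to 0.998) and PSMB9 0.77 ± 0.21 (SE, limma, adjusted p = 0.0771, range 0.0670 to 0.981). TAP2 moved as well, from 0.23 ± 0.19 to 0.38 ± 0.12 (SE, limma, adjusted p = 0.837 and 0.144). No feature of the 561 passed with these arrays turned.

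The low-Ab and low-DTH groups share no cow and were compared directly. TAP2 was lower in all low-Ab cows (−0.01, −0.44 and −0.48) than in all low-DTH cows (0.01, 0.24 and 0.08). The difference was −0.42 ± 0.15 (SE, limma, adjusted p = 0.565), and TAP2 was the only 1 of the 7 genes without overlap, against 13.5% of the named genes and 4.96% in the lower direction. PSMB9 had a difference of −0.37 ± 0.17 and PSMB8 of −0.31 ± 0.18 (SE, limma, adjusted p = 0.571 and 0.732), both with overlap, and 3 of 561 features passed (0.535%). TAP2 alone of the 7 had an unadjusted p under 0.05 (0.0196), against 7.84% of all features. Low-Ab cow 1 and low-DTH cow 3, the cows with opposed arrays, both enter here. With these arrays turned all 7 genes were lower in low-Ab cows and 5 did not overlap, namely TAP2, TAPBP, PSMB8, PSMB9 and PSMB10, against 24.1% of the named genes and 10.6% in the lower direction. TAP2 then had −0.58 ± 0.10, PSMB8 −0.56 ± 0.12 and PSMB10 −0.38 ± 0.08 (SE, limma, adjusted p = 0.0551 each, the lowest over the 18 alternatives of each gene, the highest being 0.980 for TAP2 and 0.998 for the others). Here 1 of 561 features passed (0.178%), which was none of the 7.

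Among the high cows without the shared cow there were 2 high-Ab and 2 high-DTH cows. B2M had 0.10 and −0.12 in the high-Ab cows, against 0.56 and 0.21 in the high-DTH cows, a difference of −0.39 ± 0.15 (SE, limma, adjusted p = 0.371). PSMB9 differed by 0.42 ± 0.21 and PSMB10 by 0.29 ± 0.15 (SE, limma, adjusted p = 0.544 each). All genes except PSMB8 were free of overlap, 6 of 7, but so were 48.2% of the named genes, and 2 against 2 cows cannot give an exact p below 0.333. Only B2M had an unadjusted limma p under 0.05 (0.0308), against 10.3% of all features. With the opposed arrays turned, which changes the shared estimate of spread and not these 4 cows, B2M had 0.0587 and the genes under 0.05 were PSMB10 (0.0221) and TAP2 (0.0377), against 12.1% of all features. With all 5 high and 6 low cows, each counted once, no gene was free of overlap, against 1.42% of the named genes, and none had an unadjusted p under 0.05, against 3.57% of all features. B2M averaged 0.21 ± 0.25 in high cows and −0.02 ± 0.09 in low cows (SD, n = 5 and 6), where the exact two-sided permutation test gave p = 0.0736 and the adjusted limma p was 0.996. Turning the opposed arrays gave B2M averages of 0.21 ± 0.25 in high cows and 0.03 ± 0.17 in low cows (SD, n = 5 and 6), and the exact permutation p was 0.19. CALR averaged −0.07 ± 0.14 in high cows and 0.07 ± 0.09 in low cows (SD, n = 5 and 6), with an exact permutation p of 0.0909 and an adjusted limma p of 0.996. With the opposed arrays turned CALR averaged −0.07 ± 0.14 in high cows and 0.12 ± 0.12 in low cows (SD, n = 5 and 6), and the exact permutation p was 0.0433 and the adjusted limma p 0.996.

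Over all 11 cows PSMB9 had the widest SD of the 7 genes, 0.27, followed by TAP2 and PSMB8 with 0.24 each, B2M with 0.21, PSMB10 with 0.19, CALR with 0.13 and TAPBP with 0.08. The median over the 141 genes was 0.15, so TAPBP and CALR varied less than the typical gene and the others more. Within a cow the median SD between arrays was 0.26 for TAP2, 0.20 for PSMB10 and 0.11 for TAPBP, each wider than the spread between cows. It was 0.22 for PSMB8, 0.19 for PSMB9, 0.16 for B2M and 0.11 for CALR, each narrower than the spread between cows. These SDs are not like measures, since a cow value averages arrays of both dyes, whereas the SD between single arrays includes the dye difference. They do not show whether cows differ beyond the spread of arrays. Spots of 1 gene on 1 array were closest for PSMB8 and PSMB9, with a median SD of 0.08 each, and TAP2 had the widest single array, array 4 of low-Ab cow 3 with an SD of 1.54 over 7 spots.

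Part of the spread between arrays followed the dye. PSMB9 had a higher ratio with the cow in Alexa647 than in Alexa555 in 11 of 11 cows, by 0.26 ± 0.16 on average (SD, n = 11). PSMB8 did so in 10 of 11 cows (0.24 ± 0.24), and PSMB10 and TAP2 in 9 of 11 (0.26 ± 0.22 and 0.27 ± 0.33). B2M went the other way, with a mean of −0.13 ± 0.26 and 2 of 11 cows higher in Alexa647. For CALR the mean was 0.04 and for TAPBP 0.07, below the median size of 0.14 over the 141 genes. The value of each cow is the mean of both orientations, so a dye difference common to all cows does not enter the comparisons.

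**Figure D3:**
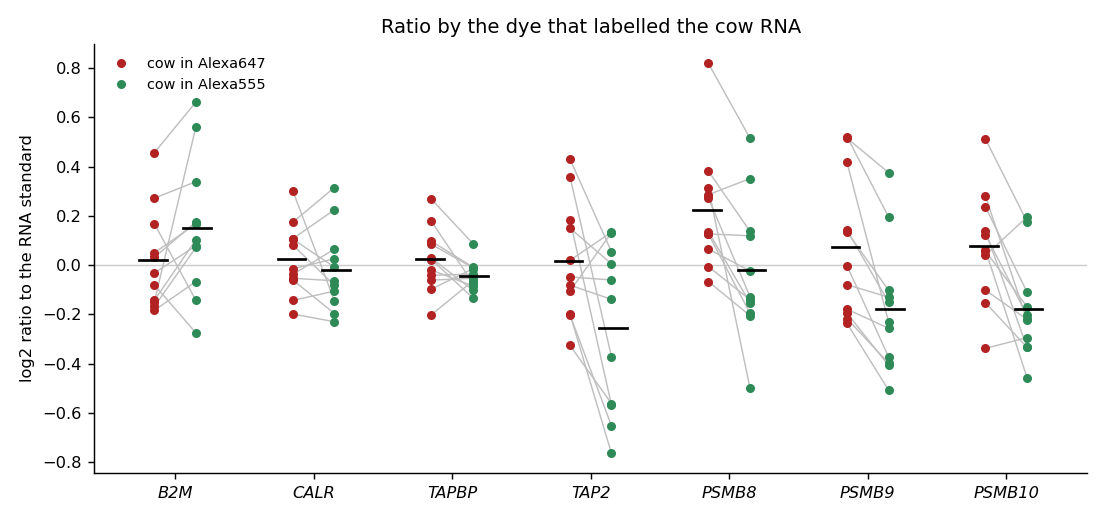
Log2 ratio of each cow with its RNA in Alexa647 (left point) and in Alexa555 (right point), joined by a line, with the mean of the 11 cows (bar). PSMB9 averages 0.08 in Alexa647 and −0.18 in Alexa555, and B2M averages 0.02 in Alexa647 and 0.15 in Alexa555.

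The 7 genes were also set against each other over the 11 cows, in 21 pairs with permutation p-values of 100000 resamples and Benjamini-Hochberg adjustment over the pairs. In 16 pairs r was above 0, and 3 pairs passed. TAPBP and PSMB9 had r = 0.83 and rho = 0.72 (permutation p = 0.00111 and 0.0162, adjusted p of r = 0.0233). TAPBP and PSMB10 had r = 0.82 and rho = 0.69 (permutation p = 0.00274 and 0.0227, adjusted p of r = 0.0288). PSMB9 and PSMB10 had r = 0.77 and rho = 0.68 (permutation p = 0.00565 and 0.0250, adjusted p of r = 0.0396). The genes compared were read on the same arrays, so they share each array's errors. Low-DTH cow 2, with 0.18, 0.45 and 0.34 for TAPBP, PSMB9 and PSMB10, had the highest value of all cows for each. Without the 2 cows farthest from the median of the first gene, r was 0.81, 0.42 and 0.50 for the 3 pairs in this order. No pair passed (adjusted permutation p = 0.0530, 0.608 and 0.530), and r fell most in the pairs with PSMB10. Leaving out extreme cows narrows the range of values, which can itself lower r. With the mean of each label group subtracted in the 10 cows other than the shared cow, r was 0.89, 0.66 and 0.66. TAPBP with PSMB9 alone was under the threshold (adjusted permutation p = 0.00945). The permutation moved the 10 values freely across groups, although subtracting group means ties the values within a group. This p can therefore be too small. On arrays 1 and 2 alone r was 0.68, 0.62 and 0.82, and of these 3 pairs PSMB9 with PSMB10 alone passed (adjusted permutation p = 0.110, 0.161 and 0.0276).

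B2M ran the other way from most of the pathway. Its r was −0.66 with PSMB10, −0.63 with CALR, −0.62 with PSMB9 and −0.61 with TAPBP (permutation p = 0.0305, 0.0364, 0.0416 and 0.0535, adjusted p = 0.0914, 0.0956, 0.0970 and 0.112), and none of these passed. With the mean of each label group subtracted in the 10 cows other than the shared cow, r was −0.28, 0.03, −0.69 and −0.43 in this order. None of these passed either. With the opposed arrays turned, r of B2M with PSMB10 was −0.36, and on arrays 3 to 5 alone it was 0.04. In that set low-DTH cow 3 has the opposed array alone, with −0.62 for B2M and −0.67 for PSMB10, the lowest of all cows for both. The r of that set without this array was not computed. With the arrays turned 9 of the 21 pairs passed, none of them with a negative r.

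**Figure D4:**
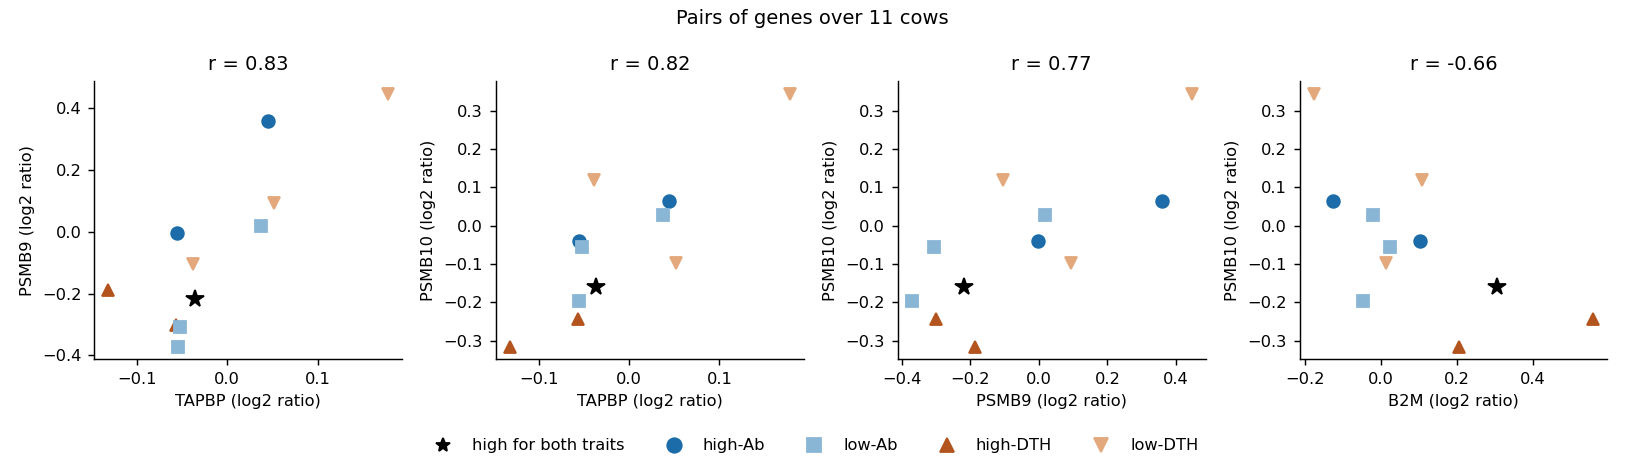
Log2 ratios of 4 pairs of genes in the 11 cows, with Pearson's r above each panel and symbols for the label groups. Low-DTH cow 2 stands at the upper right of the first 3 panels and at the upper left of the panel of B2M and PSMB10, where r is −0.66.

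Among 138 other genes, those whose pattern over the 11 cows was most like the mean of PSMB8, PSMB9 and PSMB10 were LOC512286 (r = 0.84), TAPBP (0.80), CD40 (0.80), PSMC5 (0.79) and BOLA-DRB3 (0.73). CD40 is a costimulatory receptor of B cells and other antigen-presenting cells, PSMC5 is an ATPase of the proteasome's regulatory cap, and BOLA-DRB3 is a bovine MHC class II beta chain. B2M stood at rank 132 of these 138 genes, with r = −0.62, or −0.32 with the opposed arrays turned. PSMC5 had −0.14, 0.05 and −0.15 in high-DTH cows, against 0.05, 0.46 and 0.15 in low-DTH cows, and its difference was −0.30 ± 0.14 (SE, limma, adjusted p = 0.567). The genes most like B2M among 140 were CD3G (0.81), DAXX (0.79), CCR3 (0.77), CCR4 (0.71) and CD3D (0.71). CD3G and CD3D are chains of the T cell receptor complex, DAXX is a histone chaperone, and CCR3 and CCR4 are chemokine receptors.

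Interferon gamma is the classical inducer of the immunoproteasome and of the class I pathway, and 8 of 15 genes listed for its axis were measured. In the DTH comparison 4 were higher and 4 lower, none passed, and the median difference was −0.00. IFNG itself differed by −0.05 ± 0.13, its receptor chain IFNGR1 by −0.01 ± 0.09 and the transcription factor IRF1 by −0.06 ± 0.11 (SE, limma, adjusted p = 0.912, 0.962 and 0.854). IL18, a cytokine that promotes interferon gamma production, had the largest value, 0.32 ± 0.15 (SE, limma, adjusted p = 0.576). In the Ab comparison 7 of the 8 were higher and 1 lower, with a median of 0.08 and none passing. IFNG differed there by 0.11 ± 0.12 and IL18 by 0.31 ± 0.12 (SE, limma, adjusted p = 0.954 and 0.654). With the opposed arrays turned, the medians were 0.02 for DTH and 0.09 for Ab, and IRF1 differed by −0.13 and 0.20. Between low-Ab and low-DTH cows, 5 of the 8 were higher in low-Ab cows and 3 lower, with a median of 0.02. IRF1 differed by −0.31 ± 0.19 between these groups (SE, limma, adjusted p = 0.755), or by −0.57 with the opposed arrays turned. None of the 15 genes listed for the type I interferon response was among the named spots.

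MHC class II, the route for peptides taken up from outside the cell, was measured by 3 of 13 listed genes. In the DTH comparison BOLA-DRB3, BOLA-DQA2 and BOLA-DMA all had a lower ratio in high-DTH cows, with differences of −0.52 ± 0.45, −0.33 ± 0.31 and −0.22 ± 0.23 (SE, limma, adjusted p = 0.769, 0.784 and 0.797). None passed, and the standard errors were about as large as the differences. In the Ab comparison BOLA-DQA2 had −0.71 ± 0.23 and BOLA-DRB3 0.11 ± 0.29 (SE, limma, adjusted p = 0.571 and 0.999), so the class II genes did not share 1 direction there.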

How the data were processed

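Values deposited by the authors are 1 log2 ratio per spot and array, with the log base inferred; scanner, background correction and normalization: not given in the sources used here. The total RNA was amplified in 1 round, per the labels' protocols, and cow and standard RNA were labelled with Alexa647 and Alexa555, with dye swap. No intensities were analysed here, so signal depth is unknown and precision is limited by how many arrays and cows there are. Spots of a gene were averaged, then the arrays of each dye orientation, then the 2 orientations. Array medians lay between −0.08 and 0.07, and opposite-dye arrays of a cow had a mean r of 0.37 over 44 pairs, so no sign was applied for the dye. Of 1680 spots, 1224 had 1 symbol, and unnamed spots entered the tests singly. The bacterial control vapA was set aside. Tests used limma 3.58.1 (lmFit and eBayes, R 4.3.3), checked on simulated data. Cow numbers did not pair the animals. The 7 genes, 12 further lists, markers and the genes named (the 7, measured list genes, and the 5 most correlated over cows) were chosen with earlier results of these data known.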

Additional observations from a re-analysis of the deposited data

Results flagged for a closer look

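In 14 groups of cows examined, 1 cow stood far from the others. CALR in low-DTH cow 2 had a log2 ratio of 0.245, whereas the other 5 low cows lay between −0.00018 and 0.08, and the gap was 0.681 of the range of the 6 low cows. Chance gives such a gap in about 1 of 20 groups. Its 4 arrays gave values between 0.14 and 0.41, and the same cow had the highest value of all 11 cows for TAPBP, TAP2, PSMB8, PSMB9 and PSMB10 and the lowest for B2M. With the opposed array turned, low-DTH cow 3 had 0.28 for CALR, and low-DTH cow 2 no longer stood apart. The cause was not tested.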

How the results depend on the processing

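None of the 7 genes passed the adjusted threshold in any comparison under any alternative run. Of 826 recomputed differences of the 7 genes, 787 kept their sign and 39 took the opposite sign; the cause was not tested. The signs of all 7 genes in the DTH comparison, and of all but B2M in the difference of the effects, held under every alternative run for them, among them median centring, the array-level fit and each cow left out.

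Of the differences that changed sign, the largest as reported were TAP2 between the high groups (−0.29), B2M in the difference of the effects (−0.27) and PSMB8 between the high groups (0.13). In the Ab comparison TAPBP had −0.010 with the median over spots, −0.020 in Alexa647 only and −0.0046 on arrays 1 and 2. PSMB10 had −0.047 in Alexa647 only and −0.0021 on arrays 1 and 2, where TAP2 had −0.084 and CALR 0.025. CALR also had 0.031 without the shared cow. The difference of the effects for B2M was 0.0074 in Alexa647 only. For all high against all low cows, TAP2 had 0.023 with the opposed arrays turned or left out, 0.062 on arrays 3 to 5 and 0.087 on these without the opposed array; PSMB8 had 0.047 and PSMB9 0.034 on arrays 3 to 5, and PSMB9 had 0.0047 without the shared cow. For low-Ab against low-DTH cows, B2M had −0.11 with the opposed arrays turned, −0.092 with them left out, −0.00042 after quantile normalization, −0.16 in Alexa647 only, −0.017 on arrays 1 and 2 and −0.036 on arrays 3 to 5 without the opposed array, and CALR had 0.061 on arrays 3 to 5. For high-Ab against high-DTH cows, TAP2 had 0.023 in Alexa647 only, and PSMB8 had −0.15 on arrays 3 to 5, with or without the opposed array.

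Counts of features that passed moved as well. The array-level fit, with the cow as a random block, called 15 features for Ab, 2 for DTH, 9 for all high against all low cows, 8 for high-Ab against high-DTH cows, 2 for the difference of the effects and 1 for low-Ab against low-DTH cows. Without the shared cow 1 feature passed for Ab. The 7 calls of the difference of the effects became 4 with the plain mean over arrays, and 0 with the opposed arrays turned or left out, after quantile normalization, in either dye alone, in either array set, on arrays 3 to 5 without the opposed array and without the shared cow. The 3 calls of low-Ab against low-DTH cows became 1 with the opposed arrays turned or left out and in Alexa647 only, and 0 after quantile normalization, in Alexa555 only, in either array set and on arrays 3 to 5 without the opposed array. Of the 21 pairs of genes, 9 passed with the opposed arrays turned, 4 on arrays 1 and 2, 8 on arrays 3 to 5, 1 with label group means subtracted and 0 without the 2 cows farthest from the median. The subset of arrays 3 to 5 without the opposed array and the group means subtracted were chosen after seeing the data. That subset holds no array of low-DTH cow 3, so it leaves this cow out. The permutation p with group means subtracted can be too small, as said above.

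With each cow left out in turn, the difference ranged from −0.023 to 0.038 for TAPBP and from −0.032 to 0.081 for PSMB10 in the Ab comparison. For all high against all low cows it ranged from −0.12 to 0.030 for TAP2, from −0.14 to 0.014 for PSMB8 and from −0.14 to 0.065 for PSMB9. It ranged from −0.076 to 0.068 for B2M between the low groups and from −0.0025 to 0.27 for PSMB8 between the high groups. The calls ranged from 0 to 3 for the difference of the effects and from 0 to 1 between the high groups, and were 0 throughout between the low groups. Cows of the same number did not deviate together (r from −0.27 to −0.01 for Ab and from −0.59 to −0.23 for DTH), and the replicate block gave 0 calls in both comparisons.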
